A study of Mus musculus with 11 samples.

Results

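Solute carriers are membrane proteins that move nutrients, ions, metals, vitamins and signalling molecules across the plasma membrane or across the membranes of organelles. In brain vessels they carry what the barrier does not let diffuse, and in neurons and astrocytes they load vesicles, clear transmitters and set ion gradients. Mitochondrial members exchange metabolites and nucleotides across the inner membrane. The genes described here are all genes with a symbol of the form Slc or Slco whose mean level reached 10 FPKM in at least 1 of the 4 groups, without 11 well-known barrier and glial carriers that were left out by name. FPKM are fragments mapped to a gene, corrected for transcript length and for the fragments of the library. The members were thus chosen by the measured group means, and what those means set is described without a test. For a member that reached 10 FPKM in groups of 1 tissue only, the rule used the difference between the tissues, so its change is given with a standard error (SE) and no p-value. The rule gave 159 genes of 45866 in the table, out of 392 solute carrier genes, of which 222 stayed under the level. By name, 155 of them are carriers, and 4 share only the symbol with the family. The carriers were put into 14 classes by gene family, or singly for some genes. Classes are named for a main substrate or, for mitochondrial carriers, for the place, and single members can differ from the class name.

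The values come from ribosome-bound RNA of endothelial cells. A ribosomal protein, L10a, fused to a green fluorescent protein was expressed from the VE-cadherin promoter, and the tagged ribosomes were captured with antibody (translating ribosome affinity purification). The groups of adult C57BL/6 mice that carried this transgene were: GL261 tumours of Eltd1-/- mice (n = 2), GL261 tumours of wild type mice (n = 3), healthy brain of Eltd1-/- mice (n = 3) and healthy brain of wild type mice (n = 3). GL261 is a mouse glioma cell line that was injected into the brain, and Eltd1, now Adgrl4, is an adhesion receptor of endothelial cells. The tag is limited to cells in which that promoter is active. The protocol speaks of 3 mice for each group, but only 2 libraries of knockout tumours were at hand; since no label ties a library to a single animal, p-values measure the spread between libraries, and depth is unknown because no counts were at hand.

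Libraries are called by group and number, such as KO tumour 1 or WT brain 3. Adgrl4 measured 11.5 and 5.82 FPKM in knockout tumours and 44.99, 192 and 27.4 FPKM in wild type tumours, against 21.6, 23.6 and 22.2 FPKM in knockout brains and 166, 82.7 and 153 FPKM in wild type brains, so knockout libraries lay below wild type libraries in each tissue. The 12 endothelial markers summed to 299 to 809 FPKM in tumours, against 1336 to 1996 FPKM in brains, and the 10 neuron markers to 110 to 3234 FPKM in tumours, against 5042 to 6844 FPKM in brains. Neuron markers thus exceeded endothelial markers in every brain library. They also did so in KO tumour 1 (758 against 688 FPKM), KO tumour 2 (1508 against 572 FPKM) and WT tumour 3 (3234 against 299 FPKM). In WT tumour 1 and WT tumour 2 they did not. WT tumour 3 had the highest neuron marker sum among tumours. WT tumour 2 listed 8978 genes above 0, against 11783 to 15434 in the other 10 libraries, and 55 of the 159 members at 0, against 0 to 9 elsewhere. A value of 0 there may be a failed estimate, so levels are given library by library.

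Level by level, 60 members reached 10 FPKM in all 4 groups, 58 only in brain groups, 11 only in tumour groups and 30 in other combinations. Together 90 members reached it in both tissues. These counts follow from the rule and from the levels it read. The members just inside the level were Slc27a2 (10.1 FPKM in knockout brains) and Slc6a7 (10.4 FPKM in knockout brains). Just outside were Slc35f1 (9.95 FPKM in knockout brains) and Slc2a12 (9.95 FPKM in knockout tumours). Members took 0.527% to 0.766% of all FPKM in tumour libraries, against 1.08% to 1.18% in brain libraries, and the ranges did not overlap. Because 58 members entered through brain groups only and 11 through tumour groups only, the rule can set part of this difference.

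Among the 90 members that reached 10 FPKM in both tissues, most changes that passed the test between tumour and brain were to lower levels in tumour. In knockout mice 6 of these 90 passed (6.67%), 0 higher and 6 lower in tumour. Of the 7004 tested genes that reached 10 FPKM in both tissues 7.04% passed in knockout, 3.88% higher and 3.16% lower, so the members' share lay near the background. In wild type mice 25 of the 90 passed (27.8%), 2 higher and 23 lower in tumour. Of the 7004 genes 20.9% passed in wild type, 7.54% higher and 13.3% lower. The median log2 change of the 90 members was -0.47 in knockout and -0.76 in wild type, beside -0.11 in knockout and -0.23 in wild type over the 7004 genes. The test was limma on log2(FPKM + 1) with p-values adjusted over all 15605 tested genes and a threshold of 0.05. It used 1 estimate of the spread for all groups, and which genotype had more calls depended on that. Fitted with only the groups compared, 7 of all 159 members were higher and 30 lower in knockout. In wild type 2 were then higher and 7 lower, so the counts do not rank the genotypes. In bulk libraries fewer cells of a type and less RNA per cell cannot be told apart.

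Many of these calls depended on which libraries were in the fit. Of the 6 in knockout, 5 were lost without either knockout tumour, and only Slc9a3r2 passed whichever single library was left out. Of the 25 in wild type, 12 passed whichever single library was left out, among them Slc12a5, Slc17a7, Slc22a17, Slc24a2, Slc25a23, Slc2a3, Slc38a3, Slc39a10, Slc6a6 and Slc9a3r2. The other 13 each lost their call without at least 1 library, and these were Slc20a1, Slc23a2, Slc25a17, Slc25a22, Slc30a1, Slc35b1, Slc38a6, Slc46a3, Slc4a4, Slc6a17, Slc7a14, Slc8a1 and Slc8a2. Knockout libraries do not enter the wild type change itself, but all groups share 1 estimate of the spread. Leaving out a single knockout library also lost 5 or 6 of the 25, so a lost call need not come from the values of that library. Without WT tumour 2, which listed many members at 0, 9 of the 25 lost the call: Slc20a1, Slc23a2, Slc25a17, Slc25a22, Slc35b1, Slc38a6, Slc4a4, Slc7a14 and Slc8a2. WT tumour 2 did not stand out in this. The number lost was also 9 without WT tumour 1 or WT brain 2. It was 10 without WT brain 1, 6 without WT brain 3 and 1 without WT tumour 3.

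Over all 159 members the counts follow in part from the rule and are not read further. They were 14 in knockout mice (8.81%), 5 higher and 9 lower, and 56 in wild type mice (35.2%), 7 higher and 49 lower. Of all tested genes 7.08% passed in knockout, 4.79% higher and 2.29% lower, and 19.4% in wild type, 7.7% higher and 11.7% lower. Of the 10406 tested genes that reached 10 FPKM in a group, 9.56% passed in knockout, 6.4% higher and 3.16% lower, and 26.4% in wild type, 10.4% higher and 16.0% lower. The count of 14 was 2 without either knockout tumour, 6 to 7 without a knockout brain, and 28 without WT tumour 2 or WT tumour 3. The count of 56 was 35 without WT tumour 1 or WT brain 2, and 37 without WT brain 1.

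The direction depended on the scaling. When each library was centred on its endothelial markers, 14 of the 90 members were higher and 1 lower in knockout tumours, and 27 were higher and 5 lower in wild type tumours. That scaling adds the same amount to the change of every gene in a contrast. It therefore cannot alter how members stand against other genes, and moves class medians by that amount too. The median of all tested genes became 1.16 in knockout and 1.44 in wild type. That of the 90 members became 0.87 in knockout and 0.94 in wild type. With upper quartile scaling the split was 0 higher and 2 lower in knockout and 1 higher and 16 lower in wild type. With quantile normalization it was 1 higher and 9 lower in knockout and 4 higher and 19 lower in wild type. The share of all tested genes that passed was not computed for these scalings, so the counts are not set against a background. Over all 159 members, centring on endothelial markers gave 22 higher and 2 lower in knockout and 34 higher and 7 lower in wild type, upper quartile scaling 5 higher and 4 lower in knockout, and quantile normalization 7 higher and 20 lower in knockout. With the neuron marker level as a covariate, 1 member passed in knockout, Slc9a3r2, and 0 in wild type, and the wild type changes of Slc17a7, Slc24a2, Slc24a3, Slc4a10, Slc6a17 and Slc8a2, given below as negative, turned above 0. Neuron marker sums were lower in all 5 tumours than in all 6 brains, so this covariate moves with tissue, and its part in the changes was not tested.

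**Figure D1:**
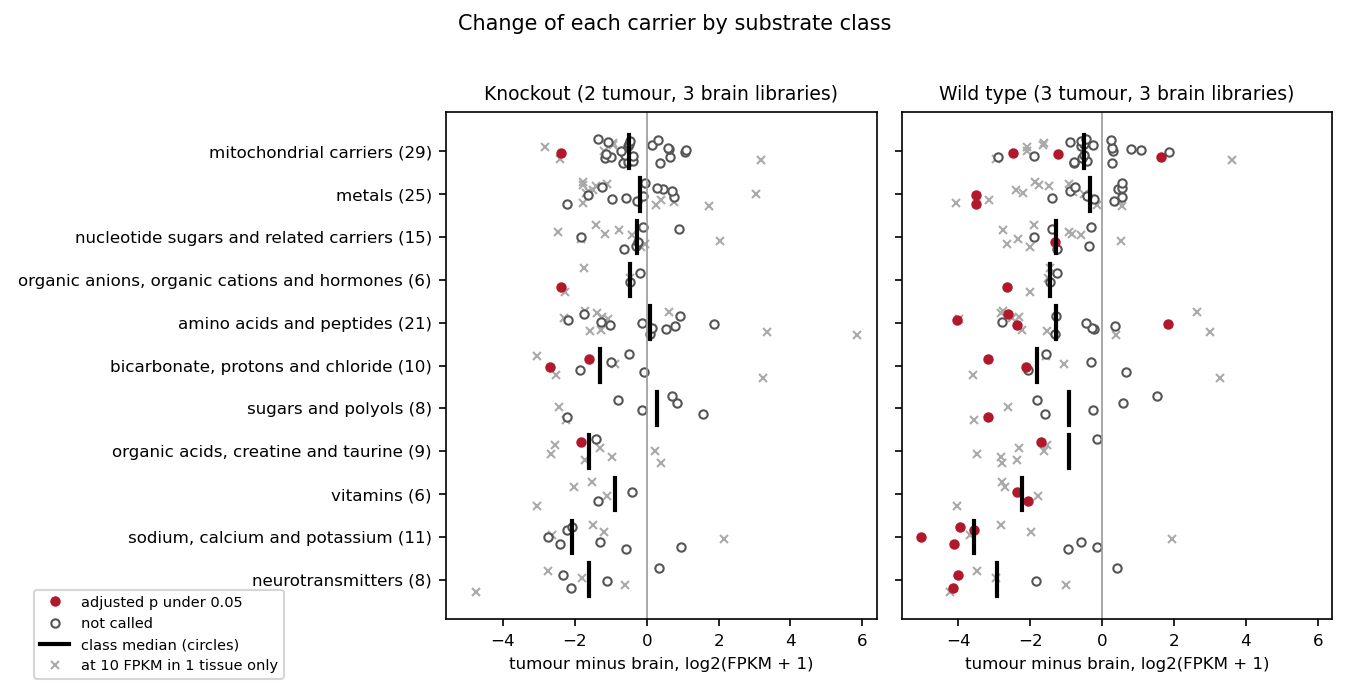
Log2 change between tumour and brain (x axis, log2(FPKM + 1)) of each carrier, by substrate class (y axis, number of members in brackets), in knockout mice on the left and wild type mice on the right. Circles are members at 10 FPKM in both tissues, filled where they passed the test (adjusted p under 0.05), and crosses are members at that level in 1 tissue only, for which no call is shown. Black bars are class medians over the circles; they lie left of 0 in all 11 classes in wild type, and in knockout those of amino acids and peptides and of sugars and polyols lie right of 0. After centring on endothelial markers, 7 of the 11 medians over circles lie right of 0 in wild type.

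Of the 90 members, those lower in tumour in both genotypes included Slc6a6, Slc22a17, Slc25a23, Slc4a4 and Slc9a3r2. Slc1a5, Slc12a7 and Slc26a2 reached 10 FPKM only in tumour groups, and Slc17a6, Slc19a3 and Slc48a1 only in brain groups, and each had the same sign of change in both genotypes. A call in 1 genotype does not show that the genotypes differ, and the test of that difference is given further on.

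**Figure D2:**
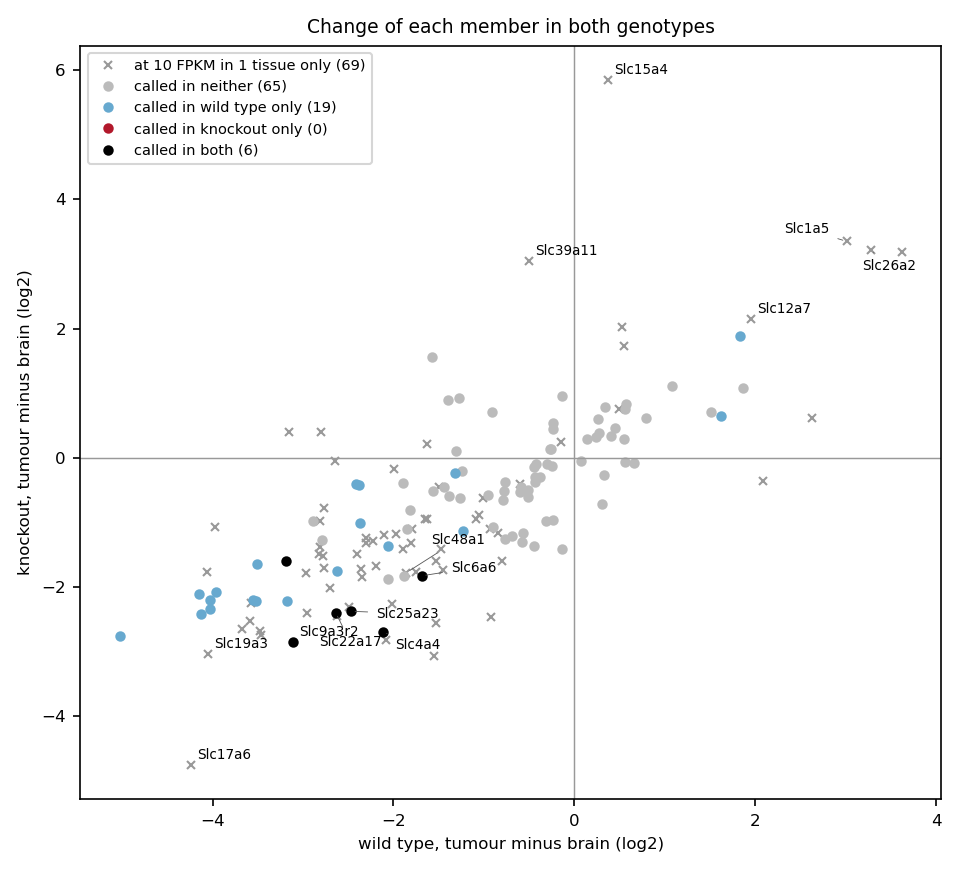
Log2 change between tumour and brain of each of the 159 genes in knockout mice (y axis) and in wild type mice (x axis). For circles, the members at 10 FPKM in both tissues, colours give the genotypes in which a gene passed the test, and crosses are members at that level in 1 tissue only, with no call shown; some genes are named. Most points lie in the lower left, and Slc15a4 and Slc39a11 stand apart, with changes of 5.85 and 3.04 in knockout and 0.38 and -0.50 in wild type.

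Counting libraries alone, all 5 tumours lay above all 6 brains for 2 of the 90 members (2.22%), Slc25a3 and Slc38a6, against 9.07% of the 7004 genes at 10 FPKM in both tissues. All 5 tumours lay below all 6 brains for 23 of the 90 (25.6%), against 13.7% of those genes. Slc1a5, Slc12a7, Slc25a13 and Slc26a2, which reached the level only in tumour groups, also had every tumour above every brain.

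**Figure D3:**
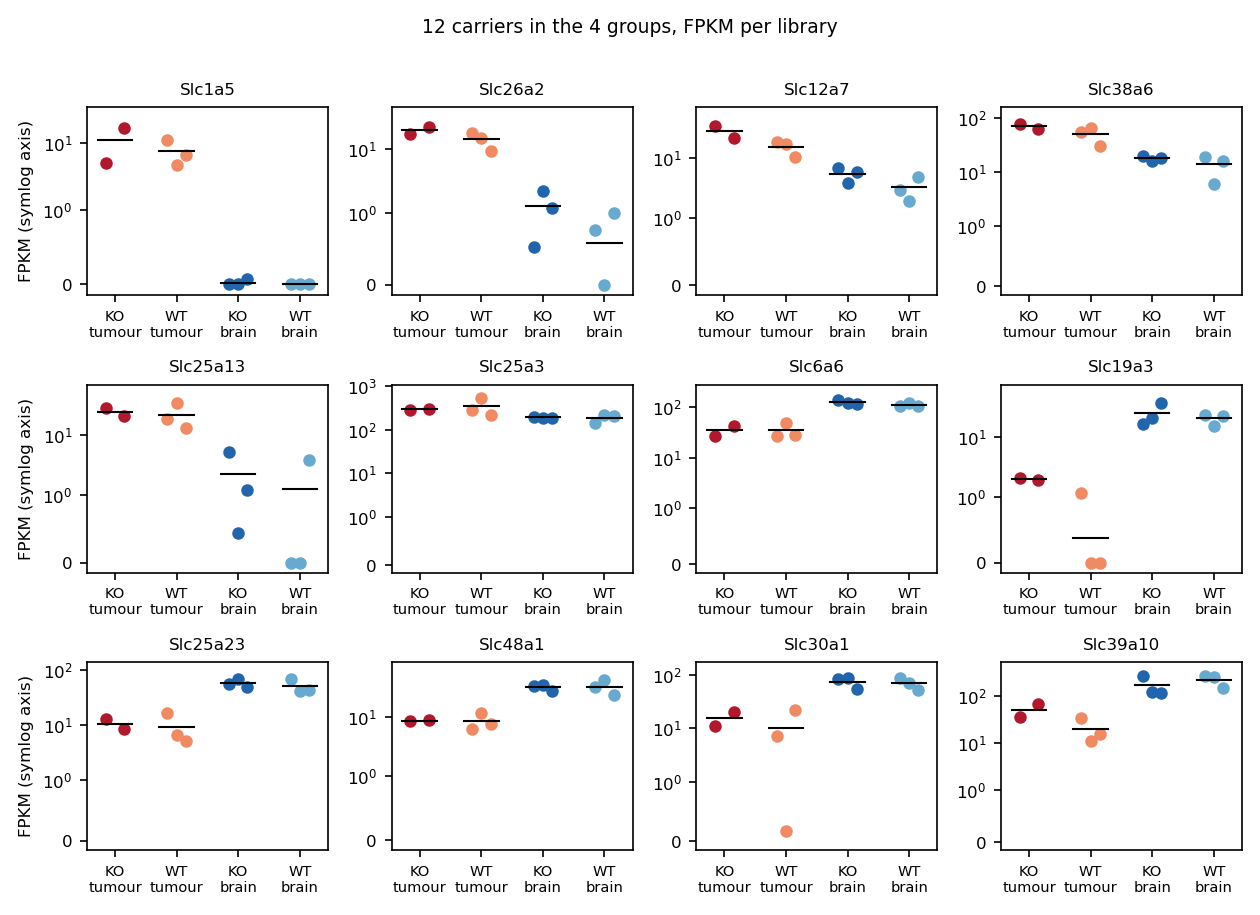
FPKM of 12 carriers in each library (y axis, logarithmic above 1 FPKM and linear below) in the 4 groups, with the group mean as a bar. The first 6 have every tumour library above every brain library, and the last 6 have every tumour library below every brain library.

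The 3 carriers with higher levels in all tumours that are described first reached 10 FPKM only in tumour groups and are known to handle glutamine, sulfate, and potassium with chloride. Slc1a5, a sodium-dependent exchanger of glutamine and other neutral amino acids, measured 5.01 and 16.98 FPKM in knockout tumours and 11.2, 4.705 and 6.54 FPKM in wild type tumours, against 0, 0 and 0.0632 FPKM in knockout brains and 0 FPKM in all wild type brains. It was at or near 0 in all brains and above 4 FPKM in all tumours. The log2 change was 3.35 (SE 0.64) in knockout and 3.01 (SE 0.57) in wild type.

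Slc26a2, a sulfate transporter whose loss disturbs cartilage, measured 17.4 and 22.4 FPKM in knockout tumours and 18.1, 15.1 and 9.52 FPKM in wild type tumours, against 0.528, 2.22 and 1.22 FPKM in knockout brains and 0.773, 0 and 0.9999 FPKM in wild type brains. Tumour and brain did not overlap. The log2 change was 3.22 (SE 0.66) in knockout and 3.28 (SE 0.59) in wild type. Slc12a7, a potassium and chloride cotransporter that exports both ions, measured 33.8 and 21.2 FPKM in knockout tumours and 18.004, 16.7 and 10.3 FPKM in wild type tumours, against 6.64, 3.81 and 5.77 FPKM in knockout brains and 2.88, 1.93 and 4.81 FPKM in wild type brains. Every tumour again exceeded every brain, with a log2 change of 2.15 (SE 0.58) in knockout and 1.95 (SE 0.52) in wild type.

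The promoter of Slc12a7 and that of Slc19a3, the thiamine carrier described next, are shown as examples of a carrier at the level only in tumour groups and a carrier at the level only in brain groups. Each runs from 250 bases before to 50 bases after a transcript start, 5′ to 3′ on the gene's strand, from RefSeq on GRCm38.p6. For Slc12a7 the window is chr13:73763410-73763709 on the plus strand, the first of 2 in RefSeq. It lies inside the gene's span, which starts at 73733052. Capitals mark the letters ACGTG, the core that hypoxia-inducible factors bind, read on both strands. Its 2 matches overlap at bases 250 to 255. For Slc19a3 the window is chr1:83038399-83038698 on the minus strand, and capitals mark CTTTGA, the core that LEF and TCF factors bind, here read on the other strand at bases 169 to 174.
Slc12a7: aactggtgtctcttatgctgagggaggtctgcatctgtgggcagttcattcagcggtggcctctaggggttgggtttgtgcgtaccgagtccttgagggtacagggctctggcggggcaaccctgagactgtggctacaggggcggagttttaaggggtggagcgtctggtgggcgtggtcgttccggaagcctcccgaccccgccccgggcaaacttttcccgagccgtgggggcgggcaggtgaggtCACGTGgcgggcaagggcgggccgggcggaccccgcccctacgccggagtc
Slc19a3: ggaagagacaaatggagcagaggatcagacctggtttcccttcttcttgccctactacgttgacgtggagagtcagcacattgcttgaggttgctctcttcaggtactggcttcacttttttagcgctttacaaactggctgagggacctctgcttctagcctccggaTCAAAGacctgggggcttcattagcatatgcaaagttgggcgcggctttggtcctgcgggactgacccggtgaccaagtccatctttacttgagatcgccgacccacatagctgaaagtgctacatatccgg
ACGTG was found on either strand in 19.6% of all 32851 promoter windows and in 25.7% of the 171 windows of 125 members. CTTTGA was found in 16.0% of all windows and in 11.7% of the members' windows. The Slc19a3 window also holds 1 match of ACGTG, left in lower case, and the Slc12a7 window holds 0 matches of CTTTGA. These are letter matches and not binding sites.

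Of 6 vitamin carriers, 4 reached the level only in brain groups and 2 in both tissues, and both of these were lower in wild type tumours, with 0 calls in knockout. Slc19a3, a thiamine carrier that brain vessels need, measured 2.06 and 1.93 FPKM in knockout tumours and 1.13, 0 and 0 FPKM in wild type tumours, against 16.8, 20.8 and 37.7 FPKM in knockout brains and 23.4, 15.6 and 22.9 FPKM in wild type brains. No tumour reached 3 FPKM and no brain was under 15 FPKM, and the log2 change was -3.04 (SE 0.64) in knockout and -4.05 (SE 0.57) in wild type. Slc52a3, a riboflavin carrier, measured 3.08, 0 and 3.61 FPKM in wild type tumours, against 13.03, 17.3 and 18.99 FPKM in wild type brains (log2 change -2.70, SE 0.67). Slc5a6, which carries biotin and pantothenate, had a log2 change of -1.53 (SE 0.81) in knockout and -2.78 (SE 0.72) in wild type. These 3 reached 10 FPKM only in brain groups.

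Slc46a3, a lysosomal member of the folate carrier family, was the most abundant of the class and measured 50.2 and 48.01 FPKM in knockout tumours and 35.4, 3.83 and 22.8 FPKM in wild type tumours, against 74.4, 41.3 and 92.1 FPKM in knockout brains and 108, 72.4 and 72.7 FPKM in wild type brains. It passed in wild type and not in knockout (log2 change -2.38, SE 0.64, adjusted p = 0.0238), and WT tumour 2 gave the lowest value. Slc23a2, the vitamin C carrier of neurons and other cells, likewise passed in wild type and not in knockout (log2 change -2.06, SE 0.64, adjusted p = 0.0438). Both calls were lost without some single libraries. Slc46a1, the proton-coupled folate carrier, reached the level only in wild type brains. Summed over the class, the level was 81.9 ± 10.3 FPKM in knockout tumours (SD, n = 2) and 42.2 ± 21.7 FPKM in wild type tumours, against 183 ± 46.4 FPKM in knockout brains and 207 ± 6.54 FPKM in wild type brains (n = 3 each). Since 4 of the 6 members entered through brain groups only, the rule can set part of this difference.

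Amino acid and peptide carriers, 21 in number, held changes in both directions. Of the 11 at the level in both tissues 0 passed in knockout, and in wild type 1 was higher and 3 lower, with medians of 0.10 in knockout and -1.27 in wild type (1.44 and 0.43 after centring on endothelial markers). Slc38a6, of the family of sodium-coupled neutral amino acid carriers, was higher in wild type tumours. It measured 77.3 and 60.6 FPKM in knockout tumours and 54.9, 63.5 and 29.6 FPKM in wild type tumours, against 19.9, 16.04 and 17.9 FPKM in knockout brains and 19.04, 6.105 and 16.2 FPKM in wild type brains, and tumour and brain did not overlap. The log2 change was 1.88 (SE 0.52, adjusted p = 0.0528) in knockout, just short of the threshold, and 1.83 (SE 0.47, adjusted p = 0.0199) in wild type, and the wild type call was lost without WT tumour 1, WT tumour 2 or WT brain 2.

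Slc7a7, the light chain of an exchanger of cationic and neutral amino acids, reached the level only in knockout tumours (log2 change 2.63, SE 0.58 in wild type). It measured 8.53 and 14.4 FPKM in knockout tumours and 5.62, 5.07 and 4.91 FPKM in wild type tumours, against 9.12, 10.7 and 3.196 FPKM in knockout brains and 0 FPKM in all wild type brains. It was above 3 FPKM in every knockout brain and listed at 0 in every wild type brain, and in knockout the change was 0.61 (SE 0.65). Slc3a2, the heavy chain that carries Slc7a7 and other light chains to the membrane, measured 48.8 and 48.4 FPKM in knockout tumours and 29.1, 29.2 and 23.97 FPKM in wild type tumours, against 52.7, 58.2 and 50.5 FPKM in knockout brains and 46.5, 23.8 and 47.7 FPKM in wild type brains and passed in neither genotype.

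The amino acid carriers lower in wild type tumours were led by Slc6a17, a carrier of neutral amino acids on synaptic vesicles, which measured 12.1 and 42.1 FPKM in knockout tumours and 9.51, 0 and 40.9 FPKM in wild type tumours, against 105, 154 and 77.97 FPKM in knockout brains and 243, 66.1 and 117 FPKM in wild type brains. Its tumour levels spread widely, from 0 in WT tumour 2 to about 40 FPKM in KO tumour 2 and WT tumour 3. The log2 change was -2.20 (SE 1.20, adjusted p = 0.285) in knockout and -4.03 (SE 1.07, adjusted p = 0.0236) in wild type. Slc38a3, a glutamine carrier of astrocytes and brain endothelium, measured 23.9 and 16.8 FPKM in knockout tumours and 13.8, 6.94 and 14.5 FPKM in wild type tumours, against 47.7, 56.3 and 26.6 FPKM in knockout brains and 99.2, 70.97 and 33.5 FPKM in wild type brains. Its tumour values lay below its brain values in every case, and its log2 change was -1.01 (SE 0.55, adjusted p = 0.284) in knockout and -2.37 (SE 0.49, adjusted p = 0.00878) in wild type.

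Slc6a20a, a proline and imino acid carrier known from meninges and at the level only in brain groups, measured 0 and 9.901 FPKM in knockout tumours and 0, 0 and 1.21 FPKM in wild type tumours, against 5.22, 4.28 and 9.15 FPKM in knockout brains and 26.7, 15.6 and 17.6 FPKM in wild type brains. The wild type brains lay above all other libraries, and the change was -3.97 (SE 0.83) in wild type. Slc7a14 passed in wild type (log2 change -2.63, SE 0.68, adjusted p = 0.0205), a call lost without WT tumour 2 among other libraries. Slc7a8, a light chain for large neutral amino acids, Slc7a4 and Slc6a7, a proline carrier of neurons, reached the level only in brain groups and had log2 changes between -2.81 and -2.50 in wild type. Among abundant members that did not pass, Slc38a2, the widely expressed carrier of alanine and glutamine, measured 36.3 and 34.6 FPKM in knockout tumours and 30.5, 24.05 and 23.3 FPKM in wild type tumours, against 20.03, 20.997 and 19.4 FPKM in knockout brains and 26.3, 18.4 and 16.7 FPKM in wild type brains. Slc38a1, a glutamine carrier known from neurons, had a log2 change of 0.54 (SE 0.38, adjusted p = 0.419) in knockout and -0.23 (SE 0.34, adjusted p = 0.666) in wild type. Slc7a11, the cystine and glutamate exchanger, had a log2 change of 0.93 (SE 0.87, adjusted p = 0.555) in knockout and -1.27 (SE 0.77, adjusted p = 0.271) in wild type. Slc7a10, an astrocyte carrier of small neutral amino acids at the level only in brain groups, had a log2 change of -1.24 (SE 0.99) in knockout and -2.30 (SE 0.89) in wild type.

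Of 8 neurotransmitter carriers, 4 reached the level only in brain groups. Of the 4 at the level in both tissues, 0 passed in knockout and 2 were lower in wild type, and 0 were higher in either. Slc17a6, which loads glutamate into synaptic vesicles and was at the level only in brain groups, measured 0 and 0.567 FPKM in knockout tumours and 0.2797, 0 and 6.39 FPKM in wild type tumours, against 28.5, 37.5 and 32.7 FPKM in knockout brains and 55.5, 35.3 and 30.3 FPKM in wild type brains. It was near 0 in 4 of the 5 tumours, and the change was -4.75 (SE 0.81) in knockout and -4.24 (SE 0.73) in wild type.

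Slc17a7, the other main vesicular glutamate carrier, was the most abundant of the class and measured 28.1 and 83.2 FPKM in knockout tumours and 1.97, 9.04 and 69.6 FPKM in wild type tumours, against 199.6, 229.6 and 210.5 FPKM in knockout brains and 257, 227 and 199 FPKM in wild type brains. KO tumour 2 and WT tumour 3 held the highest tumour levels. The change was -2.11 (SE 0.97, adjusted p = 0.205) in knockout and -4.15 (SE 0.87, adjusted p = 0.00876) in wild type. Slc32a1, which loads GABA and glycine into vesicles and was at the level only in brain groups, had a log2 change of -2.96 (SE 0.87) in wild type. Slc6a11, the GABA uptake carrier of astrocytes, likewise at the level only in brain groups, had a log2 change of -3.47 (SE 0.75) in wild type.

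Slc6a9, a glycine carrier of glia, measured 39.6 and 19.2 FPKM in knockout tumours and 48.1, 162 and 15.3 FPKM in wild type tumours, against 23.4, 18.1 and 24.2 FPKM in knockout brains and 30.95, 58.5 and 28.5 FPKM in wild type brains, and tumour and brain overlapped and it passed in neither genotype. Slc1a1, a glutamate uptake carrier of neurons, had a log2 change of -1.10 (SE 0.68, adjusted p = 0.35) in knockout and -1.85 (SE 0.61, adjusted p = 0.0534) in wild type. Slc18b1, a vesicular polyamine carrier, ranged from 0 to 22.9 FPKM. Summed over the class, the level was 136 ± 38.2 FPKM in knockout tumours (SD, n = 2) and 132 ± 68.6 FPKM in wild type tumours, against 445 ± 32.4 FPKM in knockout brains and 469.5 ± 64.2 FPKM in wild type brains (n = 3 each). Part of this difference can follow from the rule, since 4 of the 8 members entered through brain groups only.

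Carriers of sodium, calcium and potassium comprised 11 members. Of the 7 at the level in both tissues 0 passed in knockout, and 0 were higher and 4 lower in wild type. Slc24a2, an exchanger of sodium for calcium and potassium in neurons, measured 10.6 and 70.4 FPKM in knockout tumours and 5.49, 0.0824 and 64.6 FPKM in wild type tumours, against 153, 191 and 246 FPKM in knockout brains and 363, 235 and 185 FPKM in wild type brains. Its change in wild type, -5.03 (SE 1.15, adjusted p = 0.0128), was the lowest of all members, and WT tumour 3 and KO tumour 2 lay far above the other tumours. Slc12a5, the neuronal exporter of potassium and chloride, measured 28.9 and 38.1 FPKM in knockout tumours and 6.98, 1.77 and 43.3 FPKM in wild type tumours, against 123, 242 and 203 FPKM in knockout brains and 188, 182 and 152 FPKM in wild type brains. Its log2 change was -2.42 (SE 0.85, adjusted p = 0.107) in knockout and -4.13 (SE 0.76, adjusted p = 0.00484) in wild type.

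The 3 sodium-calcium exchangers had negative changes in wild type. Slc8a2 had a log2 change of -3.96 (SE 1.01, adjusted p = 0.0196), Slc8a1 one of -3.55 (SE 0.87, adjusted p = 0.0168) and Slc8a3, at the level only in brain groups, one of -2.82 (SE 0.52), and neither Slc8a2 nor Slc8a1 passed in knockout. The call of Slc8a2 was lost without WT tumour 2 among other libraries, and that of Slc8a1 without WT brain 1. Slc8a3 measured 2.69 and 2.46 FPKM in knockout tumours and 1.62, 1.43 and 1.84 FPKM in wild type tumours, against 7.295, 9.29 and 10.9 FPKM in knockout brains and 11.7, 22.2 and 20.4 FPKM in wild type brains, with every tumour under every brain. Slc24a3, also at the level only in brain groups, had a log2 change of -3.68 (SE 0.86) in wild type. Of the cotransporters of chloride with cations, Slc12a2, which imports sodium, potassium and chloride, measured 20.04 and 12.04 FPKM in knockout tumours and 12.6, 3.77 and 23.1 FPKM in wild type tumours, against 24.3, 24.02 and 23.1 FPKM in knockout brains and 22.03, 26.7 and 17.03 FPKM in wild type brains, and it passed in neither genotype. Slc12a4, a relative of Slc12a7, also passed in neither, with a log2 change of 0.96 in knockout and -0.14 in wild type. Slc24a4 reached the level only in brain groups. Summed over the class, the level was 184 ± 56.7 FPKM in knockout tumours (SD, n = 2) and 129 ± 98.7 FPKM in wild type tumours, against 628 ± 87.9 FPKM in knockout brains and 692 ± 106 FPKM in wild type brains (n = 3 each). In this class 3 members entered through brain groups only and 1 through tumour groups only, so the rule can set part of the difference.

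Carriers of bicarbonate, protons and chloride comprised 10 members, and of the 6 at the level in both tissues 0 were higher and 2 lower in each genotype. Slc4a4, the sodium bicarbonate cotransporter of astrocytes, measured 4.21 and 9.31 FPKM in knockout tumours and 4.76, 6.34 and 26.1 FPKM in wild type tumours, against 55.2, 64.2 and 28.2 FPKM in knockout brains and 49.5, 73.9 and 23.8 FPKM in wild type brains. WT tumour 3 overlapped the lowest wild type brain, and the change was -2.70 (SE 0.73, adjusted p = 0.0485) in knockout and -2.12 (SE 0.65, adjusted p = 0.0425) in wild type. The wild type call was lost without WT tumour 2 among other libraries.

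Slc4a10, a sodium-driven bicarbonate carrier of neurons and choroid plexus at the level only in brain groups, had a log2 change of -2.53 (SE 1.06) in knockout and -3.59 (SE 0.95) in wild type. The most abundant member, Slc4a2, an anion exchanger found in most tissues, measured 28.1 and 27.5 FPKM in knockout tumours and 37.5, 146 and 41.3 FPKM in wild type tumours, against 26.7, 16.8 and 56.05 FPKM in knockout brains and 36.5, 43.5 and 35.4 FPKM in wild type brains. It passed in neither genotype, and WT tumour 2 gave the highest value. Slc4a3 and Slc9a8 also did not pass, and Slc4a8 and Slc9a7 reached the level only in brain groups. After centring on endothelial markers the median of the 6, -1.29 in knockout and -1.81 in wild type, became 0.053 in knockout and -0.11 in wild type.

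Metal carriers were the second largest class, with 25 members. Of the 12 at the level in both tissues 0 passed in knockout, and in wild type 0 were higher and 2 lower. Their medians of -0.18 in knockout and -0.33 in wild type became 1.17 and 1.37 after centring on endothelial markers. The pair lower in wild type tumours were zinc carriers of both families. Slc39a10, a zinc importer that is abundant in brain vessels, had the highest mean level of the class and measured 36.9 and 66.98 FPKM in knockout tumours and 33.8, 11.2 and 15.4 FPKM in wild type tumours, against 266, 124 and 117 FPKM in knockout brains and 263, 260.5 and 149 FPKM in wild type brains. No tumour reached the lowest brain. The change was -1.64 (SE 0.53, adjusted p = 0.0868) in knockout and -3.51 (SE 0.48, adjusted p = 0.000915) in wild type.

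Slc30a1, the zinc exporter of the plasma membrane, whose transcription rises with zinc, measured 11.1 and 20.5 FPKM in knockout tumours and 7.34, 0.169 and 22.5 FPKM in wild type tumours, against 82.98, 87.3 and 55.9 FPKM in knockout brains and 87.3, 71.8 and 53.2 FPKM in wild type brains. Tumours lay below brains in every case, and WT tumour 2 was close to 0. The change was -2.22 (SE 0.94, adjusted p = 0.172) in knockout and -3.52 (SE 0.84, adjusted p = 0.0153) in wild type, where the call was lost without WT brain 1. Its promoter is shown because Slc30a1 is a textbook target of the metal-responsive factor MTF1. The window is chr1:191906531-191906830 on the plus strand of GRCm38.p6, from RefSeq, and capitals mark the metal response core, TGCACNC or TGCGCNC, here read on the other strand at bases 208 to 214 and 281 to 287.
Slc30a1: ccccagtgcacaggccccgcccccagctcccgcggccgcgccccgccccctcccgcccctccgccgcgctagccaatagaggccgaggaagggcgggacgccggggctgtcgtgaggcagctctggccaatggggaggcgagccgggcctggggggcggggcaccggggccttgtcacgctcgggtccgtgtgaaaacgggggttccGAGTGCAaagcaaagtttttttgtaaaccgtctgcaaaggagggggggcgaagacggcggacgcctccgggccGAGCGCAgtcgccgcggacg
That core was found in 25.7% of all 32851 windows and in 35.1% of the members' windows.

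Slc48a1, a carrier of haem out of endosomes, reached the level only in brain groups. It measured 8.72 and 8.85 FPKM in knockout tumours and 6.302, 11.7 and 7.61 FPKM in wild type tumours, against 34.3, 35.4 and 28.3 FPKM in knockout brains and 32.7, 44.3 and 23.9 FPKM in wild type brains, with every tumour under every brain and little spread among tumours. The change was -1.78 (SE 0.46) in knockout and -1.86 (SE 0.41) in wild type. Slc30a3, which loads zinc into synaptic vesicles and was at the level only in brain groups, had a log2 change of -4.06 (SE 0.91) in wild type. Slc39a3 and Slc39a12, zinc importers of which the second is known from astrocytes, also reached the level only in brain groups, with log2 changes of -2.41 and -2.19 in wild type.

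Slc39a11, a zinc importer, reached the level only in knockout tumours. It measured 8.95 and 16.7 FPKM in knockout tumours and 4.23, 3.81 and 5.39 FPKM in wild type tumours, against 0, 0.716 and 1.43 FPKM in knockout brains and 12.4, 4.82 and 4.84 FPKM in wild type brains. Knockout brains were the lowest group and the wild type libraries of both tissues overlapped, and the change was 3.04 (SE 0.69) in knockout and -0.50 (SE 0.62) in wild type. Slc30a7, a zinc carrier of the Golgi at the level only in wild type brains, measured 1.17 and 9.55 FPKM in knockout tumours and 2.95, 6.74 and 0.316 FPKM in wild type tumours, against 1.37, 2.17 and 5.304 FPKM in knockout brains and 94.9, 9.13 and 27.97 FPKM in wild type brains. WT brains 1 and 3 stood above every other library, while WT brain 2 lay within the range of the other groups, and the change in wild type was -3.15 (SE 0.97).

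Slc40a1, the iron exporter of brain endothelium, reached the level only in brain groups and measured 12.8 and 3.19 FPKM in knockout tumours and 2.197, 6.46 and 1.84 FPKM in wild type tumours, against 34.3, 31.97 and 13.7 FPKM in knockout brains and 18.5, 9.33 and 11.7 FPKM in wild type brains. Its change was -1.76 (SE 0.73) in knockout and -1.75 (SE 0.65) in wild type. Slc31a1, the copper importer, had a log2 change of -0.59 (SE 0.52, adjusted p = 0.533) in knockout and -1.39 (SE 0.46, adjusted p = 0.0556) in wild type and passed in neither. Slc11a1, a metal carrier of macrophage phagosomes, measured 21.7 and 15.1 FPKM in knockout tumours and 6.99, 0 and 2.09 FPKM in wild type tumours, against 0, 11.9 and 13.9 FPKM in knockout brains and 0, 0 and 6.85 FPKM in wild type brains, and spread within each group. Slc39a7, which releases zinc from the endoplasmic reticulum, was second in level and did not pass, nor did Slc39a8.

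Sugar and polyol carriers, 8 in number, included 6 at the level in both tissues, with 0 calls in knockout and 1 lower in wild type. Their medians were 0.29 in knockout and -0.91 in wild type, and 1.64 and 0.79 after centring on endothelial markers. Slc2a3, the glucose carrier of neurons, measured 6.41 and 20.2 FPKM in knockout tumours and 6.75, 0.769 and 11.1 FPKM in wild type tumours, against 48.97, 78.9 and 48.3 FPKM in knockout brains and 48.6, 50.2 and 47.01 FPKM in wild type brains. Tumours lay below brains throughout, and the change was -2.21 (SE 0.74, adjusted p = 0.0961) in knockout and -3.17 (SE 0.67, adjusted p = 0.00893) in wild type. Slc2a13, a proton-driven carrier of myo-inositol, had a log2 change of -3.57 (SE 0.71) in wild type, and Slc45a1, a brain sugar carrier, one of -2.63 (SE 0.68), both at the level only in brain groups. Slc5a3, the sodium-driven carrier of myo-inositol, measured 8.19 and 31.9 FPKM in knockout tumours and 24.04, 113 and 9.01 FPKM in wild type tumours, against 13.2, 7.74 and 8.58 FPKM in knockout brains and 27.2, 6.29 and 4.94 FPKM in wild type brains. WT tumour 2 gave its highest value and the groups overlapped. Slc37a3, the most abundant of the class, spread from 10.3 to 140 FPKM with no call.

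Carriers of organic acids, creatine and taurine comprised 9 members, of which 7 reached the level only in brain groups. Of the other 2, 1 was lower in each genotype. Slc6a6, the taurine carrier, which is abundant at the brain endothelium, measured 27.6 and 43.5 FPKM in knockout tumours and 27.4, 49.2 and 28.5 FPKM in wild type tumours, against 139.5, 124 and 114 FPKM in knockout brains and 106, 121 and 107 FPKM in wild type brains. The tumours formed a narrow range under 50 FPKM and every brain exceeded 100 FPKM. The change was -1.82 (SE 0.36, adjusted p = 0.0127) in knockout and -1.69 (SE 0.33, adjusted p = 0.0061) in wild type. Slc6a8, the creatine carrier, measured 9.32 and 10.5 FPKM in knockout tumours and 10.1, 20.3 and 12.98 FPKM in wild type tumours, against 40.1, 27.2 and 20.2 FPKM in knockout brains and 21.4, 13.03 and 13.1 FPKM in wild type brains. Knockout tumours lay below knockout brains, and the change was -1.41 (SE 0.51, adjusted p = 0.113); in wild type it was -0.14 (SE 0.45, adjusted p = 0.861).

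The 7 at the level only in brain groups included Slc16a4, a monocarboxylate carrier known from brain endothelium, which measured 0 and 2.01 FPKM in knockout tumours and 2.56, 0 and 0 FPKM in wild type tumours, against 3.99, 19.6 and 12.1 FPKM in knockout brains and 25.7, 9.07 and 17.4 FPKM in wild type brains, with a log2 change of -2.67 (SE 0.89) in knockout and -3.48 (SE 0.80) in wild type. Slc16a7, a carrier of lactate and pyruvate in neurons, had a log2 change of -2.30 (SE 0.69) in wild type. Slc13a3 and Slc13a5, carriers of dicarboxylates and citrate, had changes of -2.80 and -2.82 on the log2 scale in wild type. Slc13a3 reached 38.4 FPKM in WT brain 2 and at most 10.3 FPKM in any other library. Slc13a4, a sulfate carrier of the choroid plexus, Slc16a6 and Slc16a9 were among the others.

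Carriers of organic anions, organic cations and hormones comprised 6 members, and of the 3 at the level in both tissues 1 passed in each genotype. It was Slc22a17, a receptor for lipocalin 2, which measured 14.8 and 36.1 FPKM in knockout tumours and 6.72, 15.5 and 45.2 FPKM in wild type tumours, against 139, 124 and 116 FPKM in knockout brains and 115, 120.4 and 100.3 FPKM in wild type brains. Every brain reached 100 FPKM and no tumour reached 50 FPKM, and the change was -2.39 (SE 0.63, adjusted p = 0.042) in knockout and -2.64 (SE 0.56, adjusted p = 0.00944) in wild type. Slco2b1, an organic anion carrier, measured 29.7 and 32.8 FPKM in knockout tumours and 15.4, 40.9 and 10.3 FPKM in wild type tumours, against 41.7, 39.4 and 28.4 FPKM in knockout brains and 74.5, 36.5 and 35.9 FPKM in wild type brains and did not pass, nor did Slc22a23. Slco3a1 and Slc22a5, the carnitine carrier, reached the level only in brain groups.

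Carriers of nucleotide sugars and their relatives, which work in the Golgi and the endoplasmic reticulum, comprised 15 members. Of the 6 at the level in both tissues 0 passed in knockout and 1 was lower in wild type. Slc35b1, which brings ATP into the endoplasmic reticulum, measured 25.9 and 31.4 FPKM in knockout tumours and 27.3, 28.3 and 20.6 FPKM in wild type tumours, against 60.7, 27.04 and 23.1 FPKM in knockout brains and 75.9, 74.4 and 47.3 FPKM in wild type brains. All wild type brains and KO brain 1 stood above the other 7 libraries, and the change was -0.23 (SE 0.47, adjusted p = 0.808) in knockout and -1.32 (SE 0.42, adjusted p = 0.0454) in wild type. The wild type call was lost whichever wild type library was left out. Slc35a4 was second in level and measured 26.8 and 34.9 FPKM in knockout tumours and 54.7, 19.5 and 26.9 FPKM in wild type tumours, against 28.05, 61.8 and 31.2 FPKM in knockout brains and 65.97, 26.3 and 37.4 FPKM in wild type brains. The medians of the 6, -0.27 in knockout and -1.29 in wild type, became 1.08 and 0.41 after centring on endothelial markers.

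Mitochondrial carriers were the largest class and had the highest summed level, with 29 members. Of the 23 at the level in both tissues 0 were higher and 1 lower in knockout, and 1 was higher and 2 lower in wild type. Their medians were -0.49 in knockout and -0.51 in wild type, and 0.85 and 1.19 after centring on endothelial markers. Summed over the class, the level was 1483 ± 17.1 FPKM in knockout tumours (SD, n = 2) and 1548 ± 175 FPKM in wild type tumours, against 1729.9 ± 46.2 FPKM in knockout brains and 1775 ± 124 FPKM in wild type brains (n = 3 each). Here 5 members entered through brain groups only and 1 through tumour groups only, so the rule can set part of the difference. The pair of ADP/ATP exchangers and the phosphate carrier made up the top 3. Slc25a5, the exchanger of proliferating cells, measured 267 and 338 FPKM in knockout tumours and 299.8, 314 and 249.7 FPKM in wild type tumours, against 205, 262 and 259 FPKM in knockout brains and 192, 275 and 271 FPKM in wild type brains, and Slc25a4, the exchanger of muscle and brain, measured 147 and 213 FPKM in knockout tumours and 205, 172 and 195 FPKM in wild type tumours, against 237, 291 and 224 FPKM in knockout brains and 231, 277 and 313 FPKM in wild type brains. Neither passed. Slc25a3, the phosphate carrier, was higher in all 5 tumours than in all 6 brains, yet its change of 0.62 (SE 0.37, adjusted p = 0.332) in knockout and 0.79 (SE 0.33, adjusted p = 0.113) in wild type did not pass.

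Slc25a13, the aspartate-glutamate exchanger of liver and other tissues, reached the level only in tumour groups and measured 27.3 and 20.5 FPKM in knockout tumours and 17.99, 33.6 and 12.8 FPKM in wild type tumours, against 5.16, 0.442 and 1.23 FPKM in knockout brains and 0, 0 and 3.85 FPKM in wild type brains. The change was 3.19 (SE 0.89) in knockout and 3.62 (SE 0.79) in wild type, the highest there of all members. Its paralog Slc25a12, the aspartate-glutamate exchanger of brain and muscle, measured 66.4 and 79.2 FPKM in knockout tumours and 57.4, 69.03 and 109 FPKM in wild type tumours, against 91.97, 89.7 and 101 FPKM in knockout brains and 163, 68.2 and 96.1 FPKM in wild type brains and passed in neither genotype. Slc25a13 was under 6 FPKM in every brain, and Slc25a12 was above 55 FPKM in every library.

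Slc25a23, a calcium-dependent carrier of ATP-magnesium and phosphate, was lower in both genotypes. It measured 12.8 and 8.36 FPKM in knockout tumours and 16.4, 6.52 and 5.08 FPKM in wild type tumours, against 56.9, 69.9 and 48.7 FPKM in knockout brains and 70.1, 42.1 and 43.004 FPKM in wild type brains, with every tumour under every brain, with a log2 change of -2.37 (SE 0.52, adjusted p = 0.0198) in knockout and -2.47 (SE 0.46, adjusted p = 0.00544) in wild type. Slc25a22, a glutamate carrier, had a log2 change of -1.23 (SE 0.38, adjusted p = 0.0423) in wild type, and the call was lost without WT tumour 2 among other libraries. Slc25a14, a brain member of the uncoupling protein family, reached the level only in brain groups, was at 0 in WT tumour 2 and had a log2 change of -2.96 (SE 0.80) in wild type. Slc25a17, which serves peroxisomes, was higher in wild type tumours (log2 change 1.63, SE 0.48, adjusted p = 0.0373), a call likewise lost without WT tumour 2 among others. Slc25a18, a glutamate carrier known from astrocytes, had a log2 change of -0.98 (SE 1.18, adjusted p = 0.662) in knockout and -2.89 (SE 1.06, adjusted p = 0.0763) in wild type. Slc25a1, the citrate exporter, did not pass.

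The small classes gave 1 call. Slc20a1, a phosphate importer, was lower in wild type tumours (log2 change -2.41, SE 0.72, adjusted p = 0.0382) and measured 23.9 and 16.5 FPKM in knockout tumours and 9.96, 0.479 and 8.88 FPKM in wild type tumours, against 20.1, 32.4 and 29.2 FPKM in knockout brains and 19.7, 50.6 and 21.7 FPKM in wild type brains. WT tumour 2 was the lowest library, and without it, as without some other libraries, the call was lost. Slc20a2, its relative, did not pass. Slc29a1, the nucleoside carrier of brain vessels, spread from 0 to 65.7 FPKM among the wild type brains, and Slc29a3, of lysosomes in macrophages, was high in WT tumour 2 alone (71.9 FPKM). Slc44a1, a choline carrier, measured 22.9 and 13.9 FPKM in knockout tumours and 13.1, 20.7 and 21.1 FPKM in wild type tumours, against 45.2, 51.4 and 33.4 FPKM in knockout brains and 23.2, 36.2 and 30.3 FPKM in wild type brains, and it passed in neither genotype. The fatty acid carriers Slc27a2 and Slc27a4 reached the level only in brain groups.

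Of the 4 genes that share only the symbol, Slc9a3r2 had the smallest adjusted p of the 90 members in each genotype. It encodes a scaffold protein that holds sodium-proton exchangers and other membrane proteins at the cell surface. It measured 66.6 and 66.4 FPKM in knockout tumours and 70.8, 38.1 and 78.9 FPKM in wild type tumours, against 517, 336 and 658 FPKM in knockout brains and 527, 493 and 559.7 FPKM in wild type brains. The lowest brain value was 336 FPKM and no tumour reached 80 FPKM. The change was -2.85 (SE 0.38, adjusted p = 0.00166) in knockout and -3.12 (SE 0.34, adjusted p = 0.000308) in wild type. Its relative Slc9a3r1 measured 29.8 and 33.5 FPKM in knockout tumours and 27.7, 25.8 and 30.4 FPKM in wild type tumours, against 35.6, 38.2 and 52.3 FPKM in knockout brains and 67.4, 40.3 and 40.9 FPKM in wild type brains and did not pass, nor did Slc4a1ap and Slc7a6os.

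Carriers known mainly from a single cell type were counted on their own. Beside these counts, 3.16% of the 7004 tested genes at 10 FPKM in both tissues were lower in knockout and 13.3% in wild type. Of 15 known from neurons, 10 reached the level in both tissues, and of these 0 passed in knockout and 8 were lower in wild type, with medians of -2.15 in knockout and -3.99 in wild type. Of 11 known from brain endothelium, 8 reached it in both tissues, with 1 lower in knockout and 3 in wild type and medians of -1.13 in knockout and -1.08 in wild type. Of 8 known from astrocytes, 5 reached it in both tissues, with 1 lower in knockout and 2 in wild type and medians of -0.98 in knockout and -2.12 in wild type. Slc38a3 is on the lists for endothelium and astrocytes, and Slc4a10 on those for neurons and choroid plexus.

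Marker genes of the same cell types gave the following counts. Over all tested genes 2.29% were lower and 4.79% higher in knockout, and 11.7% were lower and 7.7% higher in wild type. Of the 12 endothelial markers 3 were lower in knockout tumours and 7 in wild type tumours, with medians of -1.19 in knockout and -1.68 in wild type. Of the 10 neuron markers 1 was lower in knockout and 9 in wild type, with medians of -2.80 in knockout and -4.27 in wild type. Of the 9 astrocyte markers 0 passed in knockout, and 1 was higher and 4 were lower in wild type. None of the endothelial, neuron or astrocyte markers was at 0 in a whole group. Microglia and macrophage markers summed to 112 to 260 FPKM in tumours, against 29.3 to 64.6 FPKM in brains. The 6 glioma and neural progenitor markers summed to 143.5 to 255 FPKM in tumours, against 39.01 to 58.4 FPKM in brains, and the 6 lymphocyte markers to 16.5 to 25.7 FPKM in tumours, against 0 to 1.55 FPKM in brains. Carriers on the neuron list summed to 168 and 399 FPKM in knockout tumours and 66.6, 61.6 and 383 FPKM in wild type tumours, against 1008, 1242 and 1132 FPKM in knockout brains and 1540.1, 1146 and 1002 FPKM in wild type brains. WT tumour 3, the tumour with the most neuron marker RNA, had a carrier sum near that of KO tumour 2. Carriers on the endothelial list summed to 207 and 222 FPKM in knockout tumours and 149, 166 and 116 FPKM in wild type tumours, against 687, 509 and 408 FPKM in knockout brains and 620.3, 627 and 442 FPKM in wild type brains. On the neuron list 5 carriers, and on the endothelial list 3, entered through brain groups only, so the rule can set part of both differences. The part that these cell types had in the carrier changes was not tested. Without WT tumours 2 and 3 together, 1 of the 90 members was higher and 17 were lower in knockout, and 2 were higher and 21 lower in wild type. The lone remaining wild type tumour is then assumed to vary like the other groups, and no share over all tested genes was computed for this setting.

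**Figure D4:**
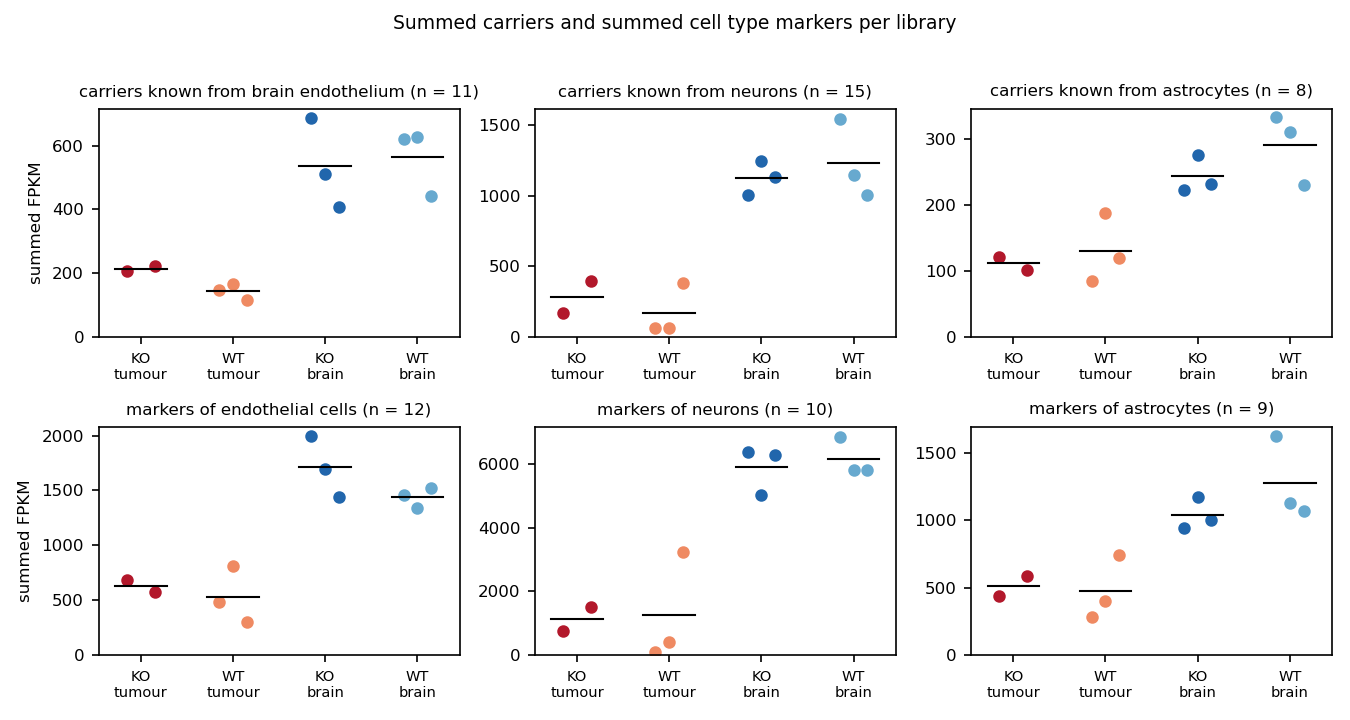
Summed FPKM (y axis) of member carriers known from brain endothelium, neurons and astrocytes (upper row) and of marker genes of endothelial cells, neurons and astrocytes (lower row) in each library, with group means as bars. In each panel all tumour libraries lie below all brain libraries. In the upper row 3 endothelial, 5 neuron and 3 astrocyte carriers reached 10 FPKM only in brain groups, so the rule can set part of those differences.

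Genes that work with the carriers were set beside them. For comparison, 2.29% of all tested genes were lower and 4.79% higher in knockout tumours, and 11.7% were lower and 7.7% higher in wild type tumours. Of the 11 named barrier and glial carriers left out of the members, 3 were lower in knockout tumours and 8 in wild type tumours, and 0 were higher. Of 11 chaperones and sodium pump subunits, on whose gradient many carriers run, 1 was lower in knockout and 9 in wild type. Of 10 ATP-driven efflux pumps, 1 was lower in knockout and 2 in wild type. Of 15 carriers with other symbols, 0 passed in knockout and 2 were lower in wild type. Among the 222 solute carriers under the level, 105 could be tested, with 0 calls in knockout and 1 higher and 4 lower in wild type.

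Between genotypes no member passed. In tumour, knockout against wild type, 0 of 159 members passed, 6 had an unadjusted p under 0.05, and 0.0192% of all tested genes passed (0.0288% of those at 10 FPKM in a group). In brain 0 passed, 5 had an unadjusted p under 0.05, and 0.00641% of all tested genes passed (0.00961% of those at 10 FPKM in a group). For the difference of the tumour-brain changes between the genotypes 0 passed, 8 had an unadjusted p under 0.05, and again 0.00641% of all tested genes and 0.00961% of those at 10 FPKM passed. All of these counts are from limma. The members' median was 0.46 in tumour and 0.04 in brain, beside 0.16 and 0.02 over all tested genes. WT tumour 2, which listed 55 of the 159 members at 0, entered the wild type side of the tumour medians, and its part in them was not tested.

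Slc15a4, a lysosomal carrier of histidine and dipeptides, had the largest difference between genotypes in tumour. It reached the level only in knockout tumours, so its differences are given without a p. It measured 436 and 208 FPKM in knockout tumours and 4.29, 12.1 and 2.57 FPKM in wild type tumours, against 1.41, 5.53 and 8.11 FPKM in knockout brains and 12.01, 0 and 7.71 FPKM in wild type brains. Both knockout tumours exceeded 200 FPKM, and no other library reached 13 FPKM. The difference between knockout and wild type tumours was 5.59 on the log2 scale (SE 1.06). The tumour-brain change was 5.85 (SE 1.06) in knockout and 0.38 (SE 0.94) in wild type, and the difference of these changes was 5.48 (SE 1.42). Slc15a4 alone made up 52.3% and 34.8% of the amino acid class sum in the knockout tumours.

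The gene lies at chr5:127594545-127633292 (GRCm38) and overlaps the start of Glt1d1 at chr5:127632070-127709374, and the counting is not stated to use strand. Glt1d1 measured 1.45 and 1.51 FPKM in knockout tumours and 5.57, 4.51 and 21.1 FPKM in wild type tumours, against 5.96, 2.87 and 7.899 FPKM in knockout brains and 3.91, 109 and 6.25 FPKM in wild type brains, and was lower in the knockout tumours than in every other library. Tmem132c and Tmem132d on either side were at most 1.92 FPKM in the knockout tumours. The promoter is printed because Slc15a4 is the member with the largest difference between genotypes. The window is chr5:127617343-127617642 on the minus strand of GRCm38.p6, from RefSeq. It lies inside the gene's span given above, away from the end at 127633292 and from the overlap with Glt1d1. Capitals mark the GC box, GGGCGG, on either strand at bases 158 to 163 and 179 to 184.
Slc15a4: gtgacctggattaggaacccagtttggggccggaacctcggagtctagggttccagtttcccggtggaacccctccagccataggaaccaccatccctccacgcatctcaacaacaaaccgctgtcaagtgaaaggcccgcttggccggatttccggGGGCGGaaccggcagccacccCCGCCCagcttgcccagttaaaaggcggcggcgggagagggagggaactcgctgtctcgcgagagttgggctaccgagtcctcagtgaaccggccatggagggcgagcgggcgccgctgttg
The GC box was found in 35.7% of all windows and in 69.6% of the members' windows.

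In brain the smallest p belonged to Slc7a7, measured at 9.12, 10.7 and 3.196 FPKM in knockout brains and listed at 0 in all wild type brains (log2 difference 2.99, SE 0.58, adjusted p = 0.452). The log2 difference between knockout and wild type brains was -2.26 for Slc39a11 (SE 0.62) and 1.15 for Slc25a17 (SE 0.48), each with an adjusted p of 1.0, and -3.07 (SE 0.97) for Slc30a7, which reached the level only in wild type brains. Between knockout and wild type tumours it was 1.41 for Slc39a10 (SE 0.53) and 1.25 for Slc31a1 (SE 0.52), each with an adjusted p of 1.0. None of these passed, which does not show that the genotypes are alike. Without WT tumours 2 and 3, 1 member passed between genotypes in tumour, Slc17a7.

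**Figure D5:**
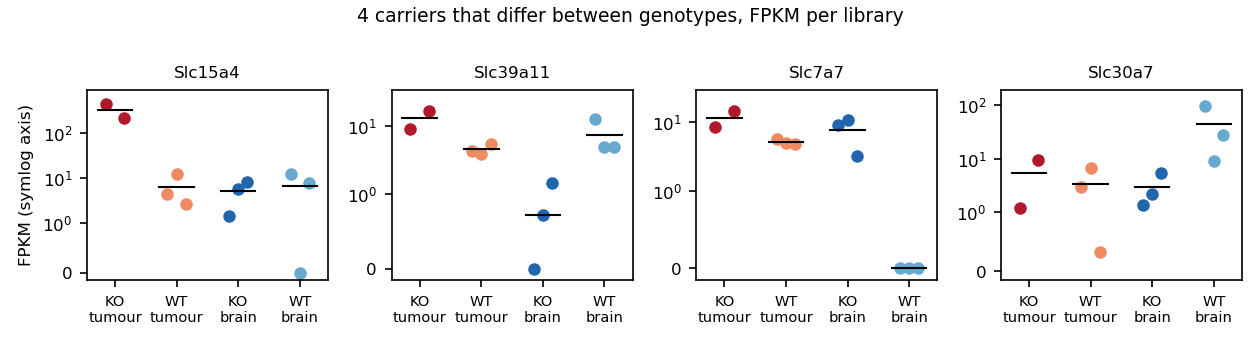
FPKM of 4 carriers with large differences between genotypes in each library (y axis, logarithmic above 1 FPKM and linear below), with group means as bars. Slc15a4 is high in both knockout tumours and Slc7a7 is at 0 in all wild type brains.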

How the data were processed

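Ribosome-bound RNA of endothelial cells was sequenced in 11 libraries. The deposited values are FPKM per gene, made by the authors with TopHat2 2.1.1 and Cufflinks 2.2.1 on GRCm38, per the submitters' processing notes; annotation and strand setting: not given in the sources used here. Repeated symbols (189 symbols, 396 entries) were summed. Counts were not used here, so depth is unknown and no counting interval is given.

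Values were tested as log2(FPKM + 1), a scale on which changes of low genes are understated, with limma 3.58.1 in R 4.3.3 (group means, eBayes with trend, 7 residual degrees of freedom). The fit ran over the 15605 genes with at least 1 FPKM in at least 2 libraries, which included all 159 members. Tests were two-sided with Benjamini-Hochberg adjustment per contrast at 0.05, and the fit was tested on simulated data. Members and lists were chosen with earlier results of these data known. Named genes are the up to 12 per direction that passed without overlap, the 4 smallest p between genotypes, the 2 most abundant of each class, those at the edge of the level, and carriers known from 1 cell type; further members were named after their values were seen, to account for their class. The split into members at 10 FPKM in both tissues or in 1 tissue was made after the data were seen. A few members are not reported here by name. Alternatives covered pseudocount, filter, scaling, samples, weights, covariate and left-out libraries.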

Additional observations from a re-analysis of the deposited data

How the results depend on the processing

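No paired analysis was possible because library numbers only follow accession order within each group and tie no animals together across groups. All counts and class medians here are over all members, including those that the rule read in 1 tissue only. Shares over all tested genes were computed for the main fit only, so counts under other settings are not set against a background. Calls between tumour and brain numbered 14 in knockout and 56 in wild type. In knockout they numbered 5 with a pseudocount of 0.1, 9 with upper quartile scaling, 37 with only the groups compared, 1 with the neuron covariate, 27 with quantile normalization, 24 with centring on endothelial markers, 57 with library weights and 40 without WT tumours 2 and 3. In wild type they numbered 34 with a pseudocount of 0.1, 35 with upper quartile scaling, 9 with only the groups compared and 0 with the neuron covariate. Leaving out single libraries gave 2 to 28 in knockout and 35 to 67 in wild type. Between genotypes in tumour 0 members passed in the main fit. With library weights the log2 difference of Slc15a4 was 5.83, given without a call because Slc15a4 reached the level only in knockout tumours. With centring on endothelial markers, knockout class medians became 0.33 for amino acids and peptides, 0.053 for bicarbonate, 0.76 for metals, 0.82 for mitochondrial carriers, -0.61 for neurotransmitters, 0.94 for nucleotide sugars, -0.070 for organic acids, 0.25 for organic anions, -0.15 for sodium, 0.88 for sugars and polyols and -0.099 for vitamins. With centring on endothelial markers, wild type class medians became 0.17 for amino acids and peptides, 0.14 for bicarbonate, 0.90 for metals, 1.13 for mitochondrial carriers, -1.51 for neurotransmitters, 0.38 for nucleotide sugars, -0.60 for organic acids, 0.23 for organic anions, -1.12 for sodium, 0.0031 for sugars and polyols and -0.84 for vitamins. With the neuron covariate, knockout class medians became 0.30 for amino acids and peptides, -0.52 for bicarbonate, -0.26 for mitochondrial carriers, -0.95 for neurotransmitters, -0.23 for organic acids, 0.27 for sodium and -0.97 for vitamins. With the neuron covariate, wild type class medians became 0.13 for amino acids and peptides, 0.24 for bicarbonate, -1.28 for metals, -0.19 for mitochondrial carriers, -0.95 for neurotransmitters, -0.61 for organic anions, 0.17 for sodium and -1.53 for vitamins. With a pseudocount of 0.1, wild type class medians became -2.21 for bicarbonate, -0.9998 for metals, -3.58 for organic acids, -2.12 for organic anions and -3.22 for vitamins. With quantile normalization, wild type class medians became -0.59 for metals. With library weights, wild type class medians became -0.93 for metals. Leaving out single libraries, knockout class medians ranged over -1.01 to -0.40 for amino acids and peptides, -2.61 to -1.55 for neurotransmitters, -0.72 to -0.39 for nucleotide sugars and -1.84 to -1.34 for vitamins. Leaving out single libraries, wild type class medians ranged over -2.04 to -0.92 for bicarbonate, -1.14 to -0.65 for metals and -2.04 to -1.48 for organic anions. Of 506 alternatives over class medians, 487 were below 0. Since 58 members entered through brain groups only and 11 through tumour groups only, the rule can set part of this sign. Over members at the level in both tissues, the knockout medians were 0.10 for amino acids and peptides and 0.29 for sugars and polyols. The neuron covariate turned the wild type change of Slc17a7 to 0.086, Slc24a2 to 0.37, Slc24a3 to 0.077, Slc4a10 to 0.83, Slc6a17 to 0.14 and Slc8a2 to 1.03, and the cause was not tested. For the 90 members at 10 FPKM in both tissues, library weights gave 1 higher and 24 lower in knockout and 3 higher and 31 lower in wild type, and only the groups compared 1 higher and 16 lower in knockout and 0 higher and 4 lower in wild type. Of 1031 alternatives over named members, 857 kept their direction and side of the threshold, 167 lost the call, 1 gained a call and 6 reversed. Members at the level in 1 tissue only, and genotype differences that did not pass in the main fit, are among them. For such genotype differences, staying uncalled counts as kept, so the tally does not measure how stable the calls are.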
